A study of Mus with 8 samples.

Results

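The 39 Hox genes of the mouse were followed through 8 uterine RNA-seq libraries, 4 labelled as deficient in PGR, the progesterone receptor, in the myometrium and 4 labelled control. They were taken by symbol as every row named Hoxa, Hoxb, Hoxc or Hoxd followed only by a number, which gave 39 of the 31269 genes in the count table: 11 in the Hox A cluster, 10 in Hox B, 9 in Hox C and 9 in Hox D. Total RNA of the uterus was sequenced at pseudopregnancy day 6, the state that follows a sterile mating, in which the uterus sees progesterone without embryos. The comparison asks how the uterus differs when the receptor is missing from the myometrium, its smooth muscle wall. All libraries share the stage and the tissue, which the labels describe as the uterus around implantation sites although pseudopregnancy has none. Strain, age, the allele, and any Cre driver that removes the receptor were not given in the sources used here, nor whether each library came from a separate animal. The p-values therefore measure the spread between these libraries, which may be technical.

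Hox genes encode homeodomain transcription factors that give tissues their position along the body axis. In mammals they sit in clusters in which gene order follows the order of expression along the axis, low numbers acting towards the head and high numbers towards the tail; genes with the same number in different clusters are paralogs with related proteins. In the female tract the posterior Hox A genes are laid out in sequence, with Hoxa9 in the oviduct, Hoxa10 in the uterus, Hoxa11 in the lower uterus and cervix, and Hoxa13 in the vagina, and mice without Hoxa10 or Hoxa11 have uteri that fail at implantation and decidualization.

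On the GRCm38.p6 assembly the Hox A genes span 106 kb of chromosome 6, the Hox B genes chromosome 11 from 96194316 to 96368254 (174 kb), the Hox C genes chromosome 15 from 102921131 to 103036856 (116 kb) and the Hox D genes chromosome 2 from 74668225 to 74765142 (96.9 kb). Levels are given as CPM, edgeR's counts relative to library size after TMM scaling, in the order of libraries 1 to 4 of each group. Of the 39 genes, 27 averaged at least 1 CPM over the 8 libraries and are described individually: 8 of Hox A, 8 of Hox B, 5 of Hox C and 6 of Hox D. The filter on low counts kept 31 for testing, these 27 and 4 of lower level.

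The libraries were deep and even, with 71377993 to 72364750 counts in the labelled deficient group and 70296369 to 71303026 in the control group, so that 3 counts in 1 library correspond to 0.0410 to 0.0445 CPM. Pgr itself was not lower: it had 187, 184, 177 and 159.7 CPM in the labelled deficient libraries, against 131, 179.96, 144 and 171 CPM in the controls (edgeR log2 difference 0.18 ± 0.11 SE, adjusted p = 0.338). Labelled deficient libraries 2 and 3 stood apart from the other 6 in their tissue markers. The 8 epithelial markers, 8 of 8 detected, summed to 1085, 2744, 2025 and 1216 CPM in the labelled deficient libraries and 1163 to 1279.8 CPM in the controls. In libraries 2 and 3 Epcam, Cdh1, Krt7, Krt8 and Krt19 lay above every control, whereas Krt18 and Cldn4 lay within the controls' range. Foxa2 was within that range in library 2 and the lowest of the 8 libraries in library 3, at 7.99 CPM. Smooth muscle markers summed to 4176 to 4880.3 CPM in the labelled deficient group and 4223 to 6318 CPM in the control group, with 8 of 8 detected, and stromal markers, 7 of 7, to 4897 to 5918 and 4171 to 4945 CPM. The stromal members went in both directions. Col1a1 averaged 2363 CPM in the labelled deficient group and 1483 CPM in the control group, and Lum was also higher. Hand2 averaged 107 and 181 CPM, and Pdgfra, Vim and Dcn were also lower. Vim was lowest in labelled deficient libraries 2 and 3, at 360 and 426 CPM. The 5 endothelial markers summed to 976, 527, 612 and 891 CPM in the labelled deficient libraries, against 786 to 954 CPM in the controls. Labelled deficient library 2 stood apart in the keratins of stratified epithelium, the lining of cervix and vagina: the 5 markers summed to 127 CPM there, against 3.62 to 5.34 CPM in the other 3 labelled deficient libraries and 2.78 to 6.87 CPM in the controls, with Krt5 at 102 CPM. Of 5 decidual marker names 4 were found, of which Prl3c1 was at 0 throughout; their sum, mostly Alpl, was 56.8, 565, 148 and 50.7 CPM in the labelled deficient libraries and 27.9 to 78.7 CPM in the controls. The sum of the immune markers, 7 of 7 detected, was 508 to 695 CPM in the labelled deficient group and 382 to 476 CPM in the control group, of which Adgre1 and Csf1r were separate between the groups and Ptprc, Cd68, Cd3e, Cd79a and Ncr1 overlapped. The sum of the 5 mesothelial markers was 148 to 243 CPM in the labelled deficient group and 297 to 378 CPM in the control group; Wt1, also a gene of stroma, made up most of it and was separate with Upk1b, while Msln, Upk3b and Lrrn4 overlapped. Oviduct markers, mostly Ovgp1, summed to 273 CPM in labelled deficient library 1, where Foxj1 was the lowest of the 8 libraries, against 39.7 to 82.1 CPM in libraries 2 to 4 and 40.0 to 71.6 CPM in the controls. Ovary markers summed to 12.5 to 16.1 CPM in the labelled deficient group and 17.0 to 21.8 CPM in the control group, with Cyp19a1, Fshr and Zp3 at 0 to 2 counts per library. In bulk tissue fewer cells of a type and less RNA per cell cannot be told apart.

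The Hox A cluster was read mainly from its posterior end, up to a sharp boundary. Per kilobase of gene span, which includes introns and so understates genes with long ones, the highest levels of all Hox genes belonged to Hoxa11, Hoxa10, Hoxa9 and Hoxd9. Hoxa11 stood at 47.5 ± 14.0 CPM per kb in labelled deficient libraries and 57.2 ± 4.42 CPM per kb in controls, Hoxa10 at 35.1 ± 10.4 and 44.4 ± 4.03, and Hoxa9 at 30.9 ± 10.0 and 46.7 ± 4.64 (SD, n = 4 each). Hoxd9 followed with 36.3 ± 13.7 CPM per kb in labelled deficient libraries and 43.8 ± 5.57 CPM per kb in controls. Among the controls Hoxa11 lay above the other 3 by more than its SD, while Hoxa9, Hoxa10 and Hoxd9 differed by less than theirs. Exon lengths could change that order. The next gene of the cluster, Hoxa13, had only 1 to 5 counts per library, at or near the 3-count floor. The anterior Hox A genes were low: per kb, Hoxa5, Hoxa2, Hoxa7, Hoxa6 and Hoxa3 ranged from 0.214 to 2.16 CPM in labelled deficient libraries and from 0.312 to 2.76 CPM in controls, and Hoxa4 averaged under 1 CPM.

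**Figure D1:**
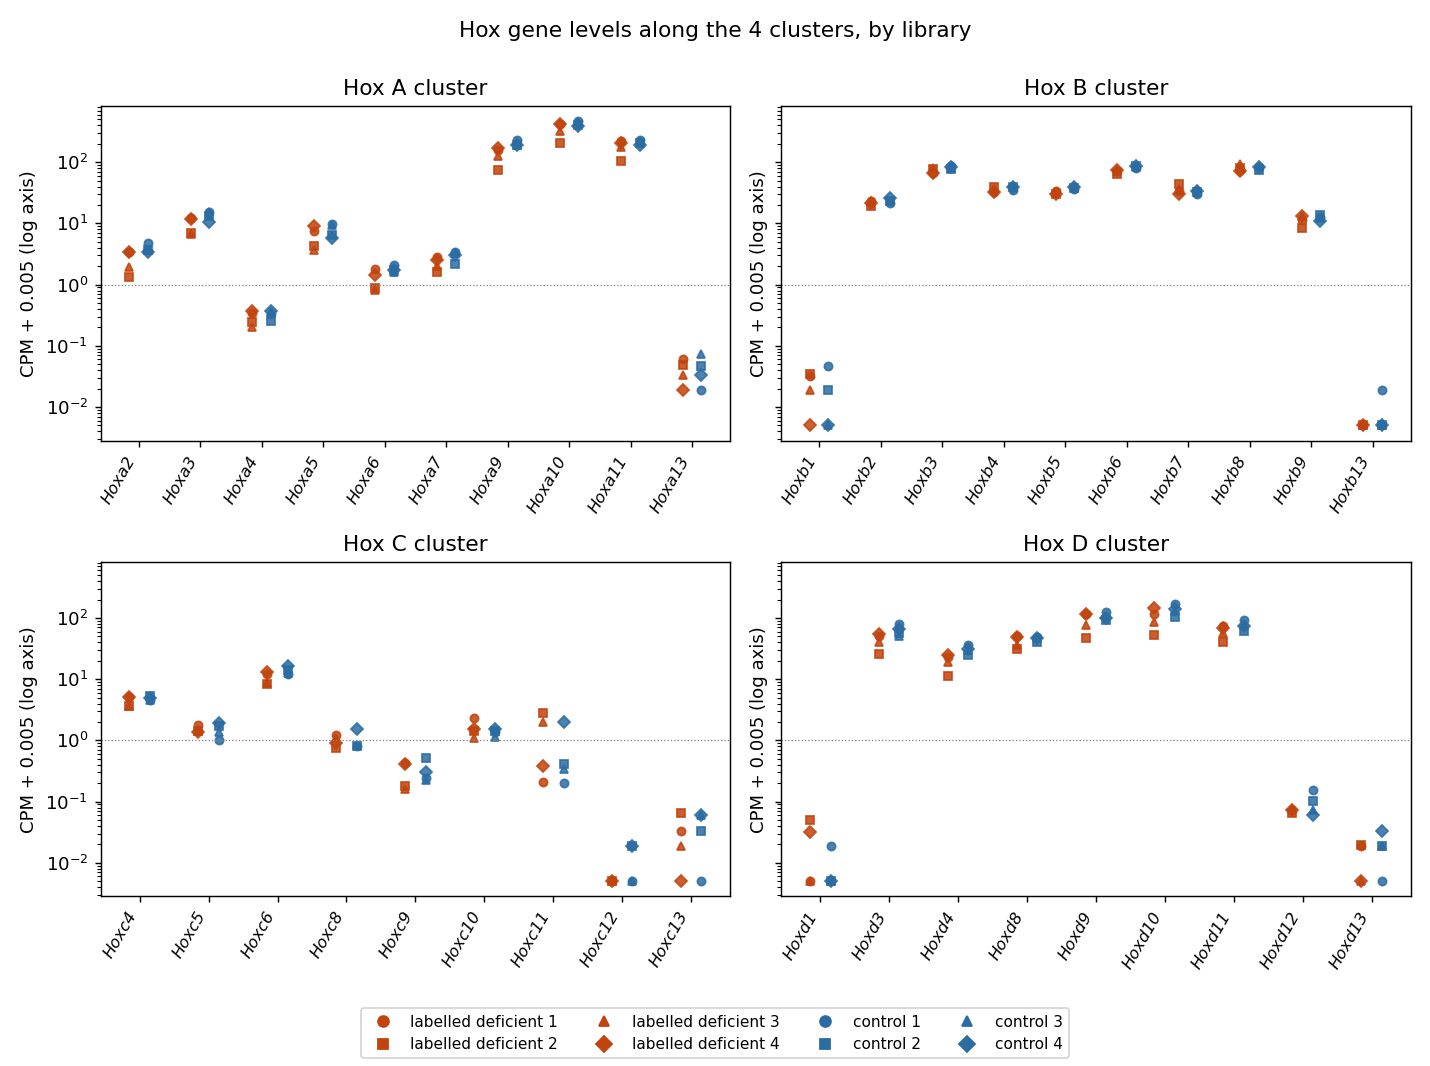
Levels of Hox genes along their clusters, in CPM plus 0.005 on a log axis, with 1 point per library (orange, labelled deficient; blue, control) and a dotted line at 1 CPM. Hox A has its highest points at Hoxa9 to Hoxa11 and then drops at Hoxa13. From Hoxb2 to Hoxb8, Hox B moves up and down between means of 22.7 CPM (Hoxb2) and 80.8 CPM (Hoxb8) over the 8 libraries. Hox C is low throughout, and Hox D is high from Hoxd3 to Hoxd11 and drops at Hoxd12.

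Hoxa10, needed in stroma for implantation, had 414, 202, 325 and 416 CPM in the labelled deficient libraries, against 464, 403, 460.2 and 388 CPM in the controls. Hoxa11, its neighbour and partner in the uterus, had 218, 103, 176 and 206 CPM in the labelled deficient libraries and 230.1, 203, 221 and 194 CPM in the controls. In both genes labelled deficient library 2 was the lowest of the 8 libraries, library 3 the next lowest, and libraries 1 and 4 lay within the range of the controls. Hoxa9, which marks the oviduct end of the tract, had 159, 73.6, 127 and 168 CPM in the labelled deficient libraries, against 229, 191, 189.6 and 189.0 CPM in the controls, and here the groups did not overlap. The edgeR log2 differences were -0.34 ± 0.21 (SE) for Hoxa10, -0.27 ± 0.21 for Hoxa11 and -0.60 ± 0.23 for Hoxa9, with Benjamini-Hochberg adjusted p of 0.346, 0.445 and 0.167. As folds, labelled deficient over control, they were 0.792 for Hoxa10 (95% interval 0.565 to 1.11), 0.830 for Hoxa11 (0.593 to 1.16) and 0.661 for Hoxa9 (0.456 to 0.957). None passed the adjusted threshold. Without labelled deficient library 2 the log2 differences were -0.15 for Hoxa10, -0.078 for Hoxa11 and -0.39 for Hoxa9, and without libraries 2 and 3 they were -0.043, 0.0065 and -0.28. Libraries 2 and 3 were the lowest for these genes, so an upward move follows from leaving them out. The same holds below wherever they were the extreme libraries of their group.

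The anterior Hox A genes, which pattern hindbrain, neck and thorax in the embryo, showed the same libraries at the bottom. Hoxa3, which patterns the pharyngeal organs, had 12.1, 6.85, 6.63 and 12.0 CPM in the labelled deficient libraries, against 15.2, 13.4, 15.6 and 10.7 CPM in the controls. Hoxa5, a gene of the respiratory tract, had 7.59, 4.26, 3.67 and 8.97 CPM in the labelled deficient libraries and 9.64, 6.53, 9.39 and 5.77 CPM in the controls. In both, libraries 2 and 3 lay under every other library and the remaining labelled deficient libraries overlapped the controls. Hoxa2, known from the hindbrain and pharyngeal arches, had 3.37, 1.35, 1.97 and 3.37 CPM in the labelled deficient libraries, against 4.81, 3.64, 3.67 and 3.41 CPM in the controls, so its groups did not overlap, by a narrow margin. Hoxa6 had 1.77, 0.860, 0.823 and 1.41 CPM in the labelled deficient libraries and 2.05, 1.72, 1.62 and 1.73 CPM in the controls. Hoxa7 had 2.81, 1.62, 1.99 and 2.52 CPM in the labelled deficient libraries and 3.44, 2.17, 3.24 and 3.05 CPM in the controls. The log2 differences of these 5 genes ran from -0.63 ± 0.31 (SE) for Hoxa2 to -0.35 ± 0.32 for Hoxa5, with edgeR adjusted p of 0.207 to 0.511. With labelled deficient libraries 2 and 3 left out they were -0.20 for Hoxa2, -0.18 for Hoxa3, 0.085 for Hoxa5, -0.16 for Hoxa6 and -0.16 for Hoxa7. The gene model of Hoxa3 contains those of Hoxa4, Hoxa5 and Hoxa6, and the strand setting of the counting was not given in the sources used here, so reads of overlapping genes may be split between them.

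Hox D was expressed across its middle, from Hoxd3 to Hoxd11, with ends near the 3-count floor. Hoxd1 had 0 to 3 counts per library, Hoxd12 4 to 11 and Hoxd13, the gene of distal limb and genital tubercle, 0 to 2. Hoxd9, Hoxd10 and Hoxd11, which pattern the lumbar and sacral body and the limbs, were high. Hoxd10 had 115, 53.6, 87.2 and 147 CPM in the labelled deficient libraries, against 169, 104, 132 and 139 CPM in the controls. Hoxd9 had 115, 47.2, 76.1 and 117 CPM in the labelled deficient libraries and 125, 93.8, 109 and 100.1 CPM in the controls. Hoxd11 had 74.6, 40.4, 56.7 and 69.8 CPM in the labelled deficient libraries and 93.3, 62.0, 77.0 and 73.9 CPM in the controls. As in Hox A, libraries 2 and 3 were the lowest pair of the 8 and libraries 1 and 4 overlapped the controls. The log2 differences were -0.43 ± 0.29 (SE) for Hoxd10, -0.27 ± 0.27 for Hoxd9 and -0.34 ± 0.20 for Hoxd11, with edgeR adjusted p of 0.372, 0.546 and 0.312. Without labelled deficient libraries 2 and 3 they were -0.051 for Hoxd10, 0.12 for Hoxd9 and -0.080 for Hoxd11. Hoxd10 and Hoxd11 overlap by 2744 bp.

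Hoxd3 and Hoxd4, which pattern the neck vertebrae, had the largest differences of the cluster. Hoxd4 had 22.7, 11.4, 18.9 and 24.4 CPM in the labelled deficient libraries, against 36.3, 24.7, 29.8 and 30.6 CPM in the controls, and the groups were just separate. Hoxd3 had 50.3, 25.9, 41.2 and 54.2 CPM in the labelled deficient libraries and 79.2, 57.9, 51.5 and 66.9 CPM in the controls, with an overlap of labelled deficient library 4 and control library 3. The log2 difference was -0.65 ± 0.23 (SE) for Hoxd4 (edgeR adjusted p = 0.147) and -0.57 ± 0.23 for Hoxd3 (adjusted p = 0.177), and Hoxd4 lies within the gene model of Hoxd3. When labelled deficient libraries 2 and 3 were left out the differences were -0.36 for Hoxd4 and -0.29 for Hoxd3. Hoxd8 had 50.4, 31.5, 36.6 and 48.4 CPM in the labelled deficient libraries, against 49.8, 41.0, 46.5 and 47.9 CPM in the controls (log2 difference -0.15 ± 0.15, edgeR adjusted p = 0.558).

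Hox B, expressed from Hoxb2 to Hoxb9, varied least between libraries of the 4 clusters. Hoxb1, a hindbrain gene, had 0 to 3 counts per library and Hoxb13, a gene of the hindgut and prostate, 1 count over the 8 libraries together. Per kb of span, Hoxb2 and Hoxb4 to Hoxb8 stood at 7.91 to 13.4 CPM in labelled deficient libraries and 7.19 to 14.7 CPM in controls. Hoxb3 was lower, at 1.79 CPM per kb in labelled deficient libraries and 2.01 in controls. So was Hoxb9, at 2.19 and 2.37 CPM per kb. Hoxb6 had 72.4, 65.4, 72.2 and 74.5 CPM in the labelled deficient libraries, against 81.7, 87.2, 82.2 and 85.8 CPM in the controls. Its neighbour Hoxb5 had 34.3, 30.2, 32.7 and 30.5 CPM in the labelled deficient libraries and 36.6, 38.0, 39.2 and 40.1 CPM in the controls. In both genes every labelled deficient library lay below every control, and libraries 1 and 4 did so as well as libraries 2 and 3. The folds were small: 0.844 for Hoxb6 (95% interval 0.769 to 0.927) and 0.830 for Hoxb5 (0.746 to 0.923). The edgeR log2 differences were -0.24 ± 0.06 (SE, adjusted p = 0.0940, the smallest of the Hox genes) and -0.27 ± 0.07 (adjusted p = 0.0987). DESeq2 called both, with adjusted p of 0.00304 for Hoxb6 and 0.00307 for Hoxb5. Outside DESeq2, adjusted p over the alternatives ran from 0.0683 to 0.253 for Hoxb6 and from 0.0844 to 0.259 for Hoxb5. Without labelled deficient libraries 2 and 3 the differences were -0.19 for Hoxb6 and -0.24 for Hoxb5. The immune, mesothelial and ovary marker sums likewise did not overlap between the groups, and their part in these values was not tested. Both genes lie within the model of Hoxb5os, a transcript of the opposite strand, whose reads cannot be told apart from theirs without strand.

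The other Hox B genes differed less. Hoxb8, a gene known from spinal cord and from part of the microglia, had 73.9, 79.1, 93.0 and 71.9 CPM in the labelled deficient libraries, against 85.0, 74.8, 86.2 and 82.9 CPM in the controls. Hoxb3 had 67.4, 78.6, 80.1 and 66.1 CPM in the labelled deficient libraries and 87.9, 77.7, 79.2 and 83.6 CPM in the controls. In both, libraries 2 and 3 were the higher of the labelled deficient group, the reverse of Hox A and Hox D. Hoxb4, known for its role in blood stem cells, had 32.2, 39.4, 36.6 and 32.2 CPM in the labelled deficient libraries and 34.6, 39.9, 39.4 and 39.8 CPM in the controls, and its gene lies within the model of Hoxb3. Hoxb7 had 34.1, 43.8, 35.9 and 30.4 CPM in the labelled deficient libraries, against 30.3, 32.4, 34.8 and 33.7 CPM in the controls, with library 2 the highest of the 8. Hoxb2 had 22.9, 19.6, 22.6 and 21.8 CPM in the labelled deficient libraries and 21.5, 23.6, 23.6 and 26.2 CPM in the controls. Hoxb9, which acts with its paralogs in rib and mammary development, had 11.6, 8.35, 13.1 and 13.2 CPM in the labelled deficient libraries and 12.9, 13.6, 12.4 and 10.9 CPM in the controls. The groups overlapped in all 6 genes, with log2 differences from -0.17 ± 0.08 (SE, Hoxb3) to 0.14 ± 0.11 (Hoxb7) and edgeR adjusted p of 0.243 to 0.760.

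**Figure D2:**
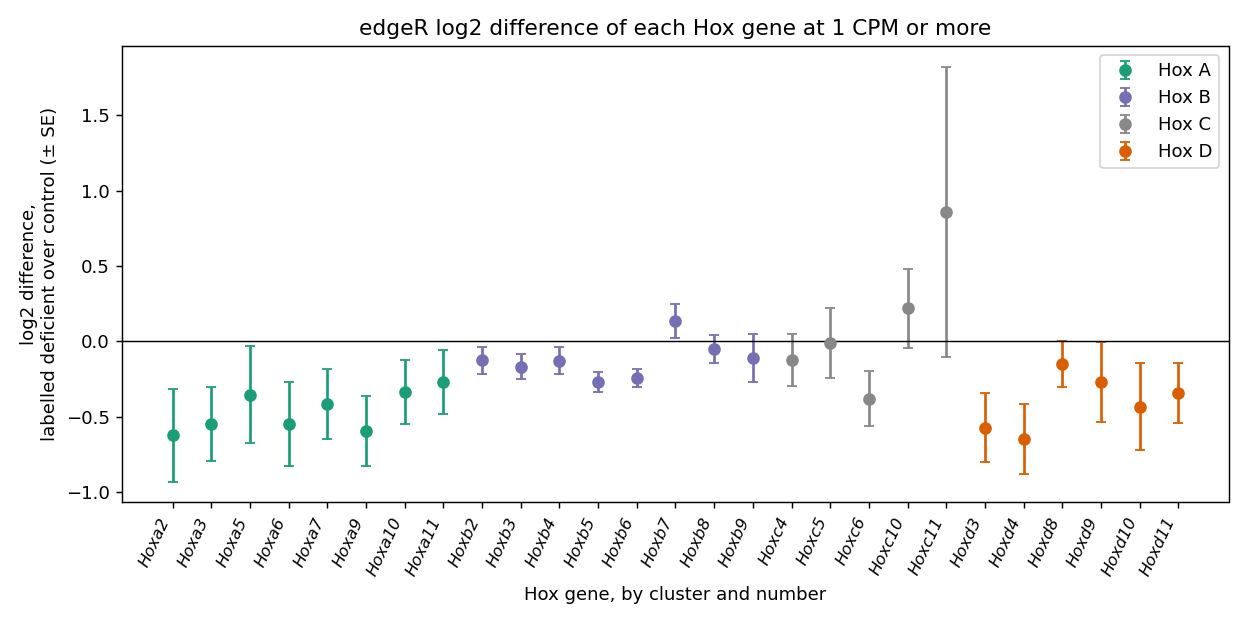
Log2 difference, labelled deficient over control, of the 27 Hox genes that averaged at least 1 CPM, coloured by cluster and ordered by number. Whiskers are 1 SE, derived from the edgeR log2 difference and its F statistic. Of the 27, 24 lie below 0, and Hoxb7, Hoxc10 and Hoxc11 lie above it.

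Hox C was low, its 5 described genes standing at 0.236 to 0.774 CPM per kb in labelled deficient libraries and 0.257 to 1.01 CPM per kb in controls. Hoxc6, its highest gene, had 12.0, 8.44, 8.51 and 13.3 CPM in the labelled deficient libraries, against 12.1, 14.2, 12.6 and 16.2 CPM in the controls (log2 difference -0.38 ± 0.18 SE, edgeR adjusted p = 0.235). Hoxc4 had 5.20, 3.59, 3.70 and 5.19 CPM in the labelled deficient libraries and 4.51, 5.26, 4.54 and 4.98 CPM in the controls. Both followed Hox A and Hox D in that libraries 2 and 3 were the lowest pair. Hoxc5 had 1.80, 1.42, 1.42 and 1.37 CPM in the labelled deficient libraries and 1.02, 1.74, 1.38 and 1.92 CPM in the controls, and Hoxc10, a gene of the hindlimb level, had 2.35, 1.39, 1.08 and 1.56 CPM in the labelled deficient libraries and 1.36, 1.42, 1.15 and 1.55 CPM in the controls. Neither differed beyond the spread of its libraries (edgeR adjusted p of 0.983 and 0.619). Hoxc8 and Hoxc9 averaged under 1 CPM, Hoxc13, the gene of hair and nail, had 0 to 4 counts, and Hoxc12 had 0 counts in all labelled deficient libraries and 1 count in each of control libraries 2 and 4.

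Hoxc11, a gene of the hindlimb and sacral level whose paralogs act in the kidney, was the most variable of the 27 genes and did not follow the groups. It had 0.207, 2.77, 1.96 and 0.383 CPM in the labelled deficient libraries, against 0.193, 0.409, 0.342 and 1.99 CPM in the controls. Labelled deficient libraries 2 and 3 and control library 4 thus held 138 to 187 counts, and the other 5 libraries 14 to 29. Hotair, a long noncoding RNA of the same cluster whose gene lies next to it at chromosome 15 from 102944062 to 102947946, against 102954526 to 102956701 for Hoxc11, was high in the same 3 libraries, and was picked out after its values were seen. Hotair had 0.166, 2.70, 2.09 and 0.287 CPM in the labelled deficient libraries and 0.165, 0.339, 0.465 and 2.14 CPM in the controls. Hoxc10, the next Hox gene on the side of Hoxc11 away from Hotair, did not show this split. The group difference was 0.86 ± 0.96 (SE) on the log2 scale for Hoxc11 and 0.75 ± 1.03 for Hotair, with edgeR adjusted p of 0.598 and 0.671. Without labelled deficient libraries 2 and 3 the Hoxc11 difference was -1.30. The summed epithelial markers of control library 4 were 1163 CPM, against 2744 and 2025 CPM in labelled deficient libraries 2 and 3, and the part of tissue make-up in this split was not tested.

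**Figure D3:**
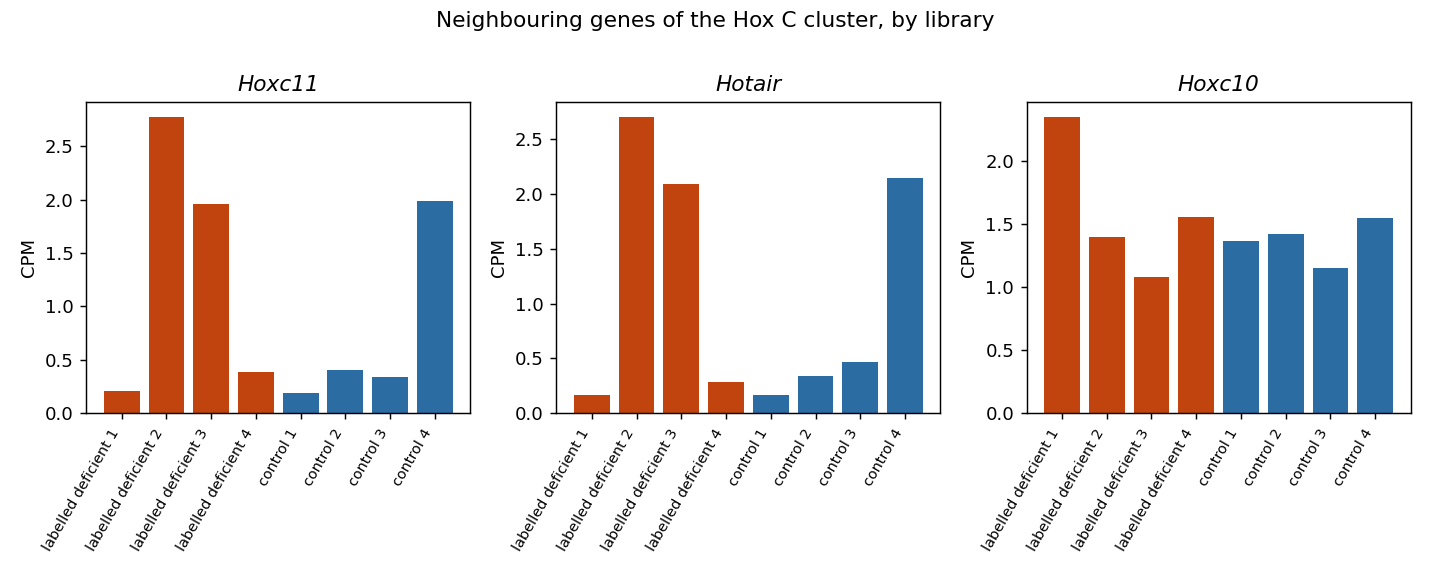
CPM of Hoxc11, the noncoding RNA Hotair and Hoxc10 in each library (orange, labelled deficient 1 to 4; blue, control 1 to 4). Hoxc11 and Hotair are high in labelled deficient libraries 2 and 3 and in control library 4, which Hoxc10 is not.

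Across the Hox genes, edgeR's quasi-likelihood test called 0 of the 31 tested at an adjusted p of 0.05, as it did 0% of the 17629 genes tested. At an unadjusted p under 0.05, 5 of 31 (16.1%) were lower, namely Hoxa9, Hoxb5, Hoxb6, Hoxd3 and Hoxd4, against 11.8% of all genes, and 0 were higher, against 13.0% of all genes (24.8% in either direction). DESeq2 called 2 of 31 lower (6.45%), Hoxb5 and Hoxb6, against 6.72% of all genes, so that the share is that of the background, and 0 higher, against 7.43%. limma-voom called 0 of the Hox genes and 0.0113% of all genes. In 5 genes the groups did not overlap with the labelled deficient group lower (Hoxa2, Hoxa9, Hoxb5, Hoxb6 and Hoxd4), 16.1% of the tested against 8.66% of all genes, and in 0 with it higher, against 7.61% of all genes (16.3% in either direction). The sign was uneven: 28 of the 31 tested had a negative difference, with a median of -0.27 on the log2 scale, whereas 48.0% of all genes were negative with a median of 0.01. Of the 27 described genes 24 were negative, and without labelled deficient libraries 2 and 3 the count was 20. Genes of 1 cluster share neighbours, and in places their gene spans overlap, so they are not independent counts of the same difference.

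**Figure D4:**
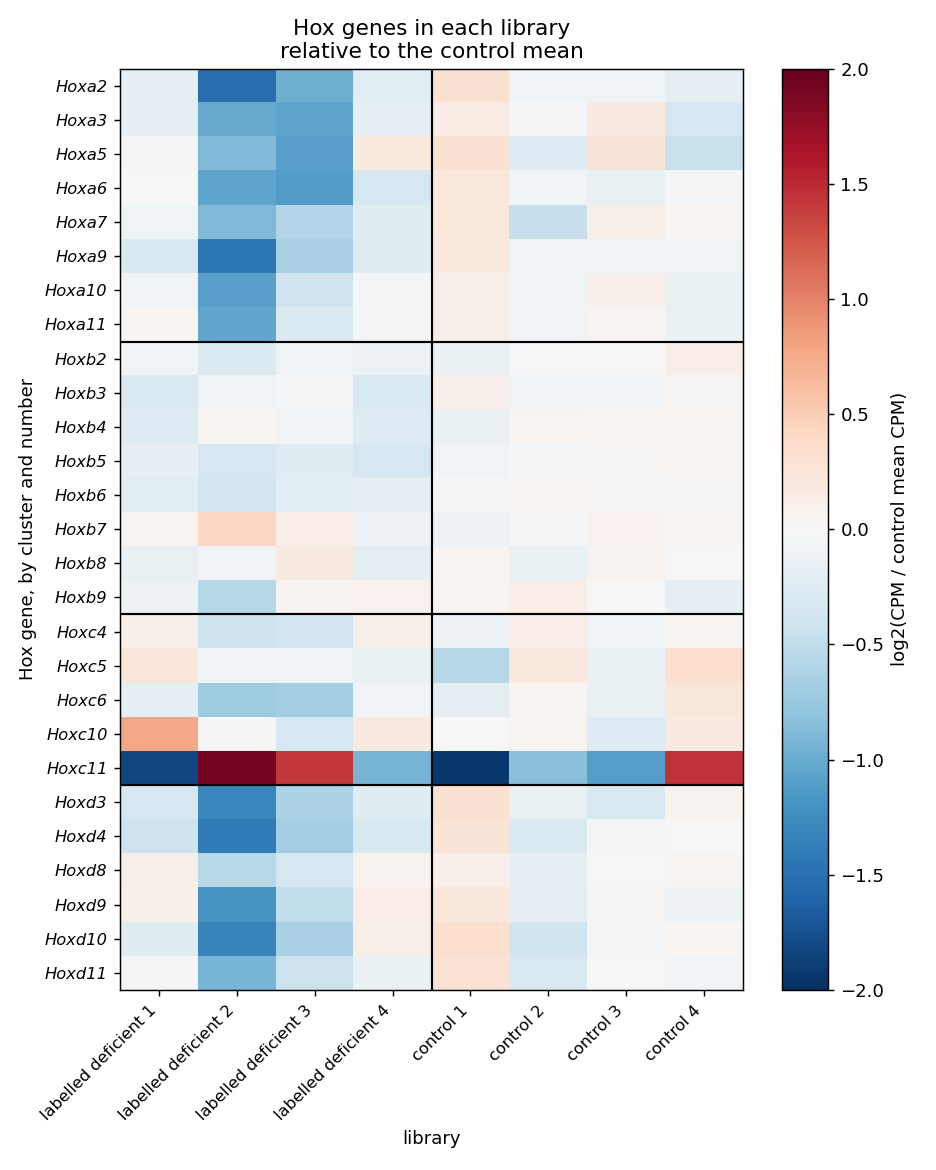
Log2 of each library's CPM over the control mean, for the 27 Hox genes that averaged at least 1 CPM (rows) in labelled deficient libraries 1 to 4 and control libraries 1 to 4 (columns), blue below and red above the control mean. The blue columns are labelled deficient libraries 2 and 3 in the Hox A and Hox D rows; Hox B is pale in every library, and Hoxc11 is red in labelled deficient 2 and 3 and control 4.

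What set the clusters apart was how far labelled deficient libraries 2 and 3 departed. They were the lowest pair of the 8 libraries in 8 of 8 described Hox A genes and 6 of 6 Hox D genes, but in 1 of 8 Hox B genes and 2 of 5 Hox C genes, against 16.1% of all tested genes. The median log2 of a library over the control mean was -0.07, -1.05, -0.82 and -0.20 in labelled deficient libraries 1 to 4 for Hox A, and -0.14, -1.24, -0.56 and -0.04 for Hox D. For Hox B it was -0.16, -0.17, -0.05 and -0.19 in labelled deficient libraries 1 to 4, so that libraries 1, 2 and 4 were slightly low and library 3 lay within the range of the controls. The controls ranged from -0.14 to 0.20 for Hox A, from -0.24 to 0.27 for Hox D and from -0.06 to 0.03 for Hox B. The median coefficient of variation of the described genes was 32.5% in the labelled deficient group and 13.4% in the control group for Hox A, 29.6% and 16.2% for Hox D, and 10.0% and 6.05% for Hox B. All tested genes at 1 CPM or more had medians of 14.1% in the labelled deficient group and 9.09% in the control group. The same 2 libraries carried the high epithelial and decidual sums and the low endothelial sums given above, and library 2 the stratified keratins; the part of these in the Hox values was not tested.

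Summed over its genes, Hox A reached 820.0, 394, 644 and 819 CPM in the labelled deficient libraries, against 959, 825, 905 and 796 CPM in the controls. Hox D reached 428, 210.1, 317 and 461 CPM in the labelled deficient libraries, against 553, 383, 446 and 459 CPM in the controls. In both sums labelled deficient libraries 1 and 4 overlapped the controls, while libraries 2 and 3 lay below every control. Hox B reached 349, 364, 386 and 341 CPM in the labelled deficient libraries, against 391, 387, 397 and 403 CPM in the controls, and the groups did not overlap, although labelled deficient library 3 and control library 2 were close. Hox C reached 23.3, 18.6, 17.9 and 23.1 CPM in the labelled deficient libraries and 20.2, 24.4, 21.1 and 28.5 CPM in the controls. The ratio of means, labelled deficient over control, was 0.768 for Hox A, 0.913 for Hox B, 0.879 for Hox C and 0.769 for Hox D. Permuting the libraries in every way (exact, two-sided) gave p = 0.0286 for Hox B, the smallest that 4 against 4 libraries allow, and 0.114, 0.286 and 0.2 for Hox A, Hox C and Hox D. Adjusted over the 4 clusters these exact p were 0.114 for Hox B, 0.229 for Hox A, 0.286 for Hox C and 0.267 for Hox D. Without labelled deficient libraries 2 and 3 the log2 ratio was -0.08 for Hox A, against -0.38 with all libraries, and -0.05 for Hox D, against -0.38, while for Hox B it was -0.19, against -0.13. Those 2 libraries had the lowest Hox A and Hox D sums and the highest labelled deficient Hox B sums. The direction of these moves therefore follows from which libraries were left out.

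**Figure D5:**
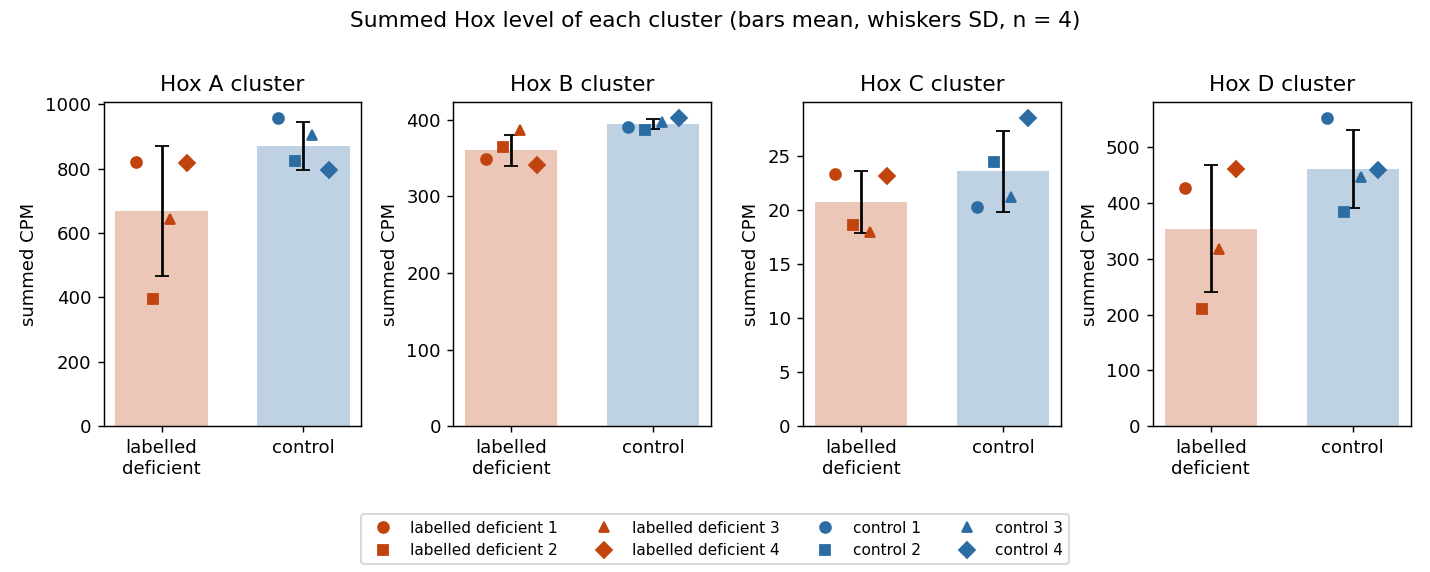
Summed CPM of each Hox cluster (bars, mean; whiskers, SD, n = 4; points, libraries; labelled deficient left, control right), on a separate linear axis from 0 for each cluster. Labelled deficient libraries 2 and 3 lie lowest for Hox A (394 and 644) and Hox D (210.1 and 317), whereas for Hox B all 4 labelled deficient libraries lie between 341 and 386, below controls at 387 to 403.

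The make-up of the Hox signal differed in those libraries. All Hox genes together held 1620, 988, 1365 and 1644 CPM in the labelled deficient libraries, against 1923, 1620, 1770 and 1686 CPM in the controls. Hox A held 50.6%, 39.9%, 47.2% and 49.8% of that in the labelled deficient libraries and 47.2% to 51.1% in the controls, while Hox B held 21.5%, 36.9%, 28.3% and 20.7% and in the controls 20.3% to 23.9%. The ratio of Hox A plus Hox D to Hox B was 3.58, 1.66, 2.49 and 3.76 in the labelled deficient libraries, against 3.87, 3.12, 3.40 and 3.12 in the controls. Libraries 1 and 4 thus lay within the controls' range and libraries 2 and 3 below it.

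Read across the clusters by paralog group, the groups of libraries were separate in groups 2 to 6. The sum of group 4 (Hoxa4, Hoxb4, Hoxc4 and Hoxd4) was 60.4, 54.6, 59.4 and 62.2 CPM in the labelled deficient libraries, against 75.7, 70.1, 74.1 and 75.7 CPM in the controls. The sum of group 3 was 130, 111, 128 and 132 CPM in the labelled deficient libraries and 182, 149, 146 and 161 CPM in the controls. In both sums every labelled deficient library lay below every control. The sum of group 6 was 86.2, 74.7, 81.5 and 89.2 CPM in the labelled deficient libraries and 95.9, 103, 96.5 and 104 CPM in the controls. Groups 2 and 5 also did not overlap, which made 5 of 13 groups, all lower, where 8.66% of all single genes were separate and lower. These sums hold the genes described above, among them the separate Hoxa2, Hoxb5, Hoxb6 and Hoxd4, and are no further count. The log2 ratios of these 5 ran from -0.35 in group 3 to -0.19 in group 2. Exact permutation (two-sided) gave each of them p = 0.0286, the smallest possible, and 0.0743 after adjustment over the 13 groups, so none passed. Genes of several clusters contribute. In CPM, Hoxd3 and Hoxd4 had the larger differences in groups 3 and 4 and Hoxb5 and Hoxb6 in groups 5 and 6. On the edgeR log2 scale the estimate was larger for Hoxa5 (-0.35 ± 0.32 SE) than for Hoxb5 (-0.27 ± 0.07). It was also larger for Hoxa6 (-0.55 ± 0.28) and Hoxc6 (-0.38 ± 0.18) than for Hoxb6 (-0.24 ± 0.06). Without labelled deficient libraries 2 and 3 this order turned. Hoxa5 was then 0.085 and Hoxb5 -0.24, while Hoxa6 was -0.16, Hoxc6 -0.12 and Hoxb6 -0.19. Groups 7 and 8 overlapped, with log2 ratios of 0.10 and -0.08 (exact p = 0.543 and 0.257, two-sided). The posterior groups overlapped too: group 9 was 286, 129, 216 and 299 CPM in the labelled deficient libraries and 368, 299, 312 and 300.3 CPM in the controls (exact p = 0.0571, two-sided), and groups 10 and 11 had log2 ratios of -0.36 and -0.28 (exact p = 0.171 and 0.229). Without labelled deficient libraries 2 and 3 the ratio of group 5 was -0.17, against -0.27, and that of group 2 was -0.10, against -0.19.

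The noncoding genes of the clusters followed their neighbours in sign. Of 18 listed, 12 were in the table and 9 were tested; 8 had a negative difference, with a median of -0.38 on the log2 scale, and edgeR called 0, with 1 lower at an unadjusted p under 0.05, against 11.8% of all genes. That 1 was Mir196b, between Hoxa9 and Hoxa10, with 1.27, 0.578, 1.05 and 1.15 CPM in the labelled deficient libraries and 1.65, 1.75, 1.41 and 2.03 CPM in the controls (log2 difference -0.76 ± 0.27 SE, edgeR adjusted p = 0.145); whether these counts come from the mature miRNA or from longer RNA was not tested. Hoxa11os, antisense to Hoxa11 and overlapping its model by 568 bp, had 180, 64.6, 112 and 184 CPM in the labelled deficient libraries, against 213, 168, 183 and 138 CPM in the controls (adjusted p = 0.470, edgeR), the same libraries being low. Haglr, in the Hox D cluster, averaged 4.08 ± 1.07 CPM in the labelled deficient group and 5.52 ± 1.28 CPM in the control group (SD, n = 4 each; edgeR adjusted p = 0.307).

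Of the partners that bind DNA with Hox proteins, the Pbx and Meis families, all 9 were tested and edgeR called 0, with 1 lower and 0 higher at an unadjusted p under 0.05, against 11.8% and 13.0% of all genes. Meis3 had 50.1, 40.3, 46.7 and 50.4 CPM in the labelled deficient libraries, against 70.3, 55.4, 58.8 and 56.6 CPM in the controls, with no overlap (log2 difference -0.36 ± 0.10 SE, edgeR adjusted p = 0.107, called by DESeq2). DESeq2 called 1 of the 9, against 14.2% of all genes, and the groups were separate in 2 of the 9, against 16.3%. The median log2 difference of the 9 was -0.0038.

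Of the Polycomb and trithorax genes, whose complexes keep Hox genes off or on, all 22 were tested and edgeR called 0, with 5 lower and 2 higher at an unadjusted p under 0.05 (24.8% of all genes in either direction) and a median log2 difference of -0.06. DESeq2 called 4, against 14.2% of all genes. Cbx7, a Polycomb reader, had 88.8, 57.2, 91.9 and 133 CPM in the labelled deficient libraries and 202, 138, 175 and 187 CPM in the controls (log2 difference -0.92 ± 0.24 SE, edgeR adjusted p = 0.101). Kmt2a, the trithorax methyltransferase that maintains Hox expression, had 221, 181, 209.8 and 251 CPM in the labelled deficient libraries, against 282, 270.3, 270.8 and 313 CPM in the controls (-0.40 ± 0.10, edgeR adjusted p = 0.101). The groups did not overlap in either gene, and were separate in 5 of the 22, against 16.3% of all genes. Without labelled deficient libraries 2 and 3 the Kmt2a difference was -0.26. Phc2 (-0.27 ± 0.07) and Bmi1 (0.24 ± 0.08), subunits of a Polycomb complex, had differences of opposite sign.

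Retinoic acid and Cdx factors set Hox expression in the embryo. Cdx1, Cdx2 and Cdx4 had 0 to 3 counts and were not tested; of the 9 tested genes edgeR called 0, with 2 lower and 2 higher at an unadjusted p under 0.05 (24.8% of all genes in either direction) and a median log2 difference of -0.03. DESeq2 called 4, against 14.2% of all genes. Aldh1a2, which makes retinoic acid, had 135, 490, 288 and 121 CPM in the labelled deficient libraries, against 93.3, 110, 98.0 and 72.5 CPM in the controls (log2 difference 1.47 ± 0.43 SE, edgeR adjusted p = 0.111). The Aldh1a2 difference was 0.96 without labelled deficient library 2 and 0.46 without libraries 2 and 3. Cyp26a1, which degrades it and was singled out after its values were seen, had 107, 2.77, 13.6 and 109 CPM in the labelled deficient libraries and 222, 248, 149 and 199 CPM in the controls. Both departed most in libraries 2 and 3, in opposite directions. Rara, a retinoic acid receptor, had a log2 difference of 0.52 ± 0.12 (SE), Aldh1a1 of -0.63 ± 0.18 and Cyp26c1 of -2.14 ± 0.64, with edgeR adjusted p of 0.0906, 0.108 and 0.114. The difference without labelled deficient libraries 2 and 3 was 0.34 for Rara and -0.41 for Aldh1a1.

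Genes of tract patterning and uterine genes tied to Hoxa10 or Hoxa11 made up the last list, with 15 in the table and 13 tested. edgeR called 0, with 3 lower and 4 higher at an unadjusted p under 0.05 (11.8% and 13.0% of all genes) and a median log2 difference of 0.09. DESeq2 called 5, against 14.2% of all genes. Ptger3, a prostaglandin receptor reported to depend on Hoxa10 in mice, averaged 22.4 ± 6.61 CPM in the labelled deficient group and 56.9 ± 8.63 CPM in the control group (SD, n = 4 each; log2 difference -1.34 ± 0.23 SE, edgeR adjusted p = 0.0906). Msx2, a homeobox gene of the uterine epithelium, averaged 9.41 ± 2.25 CPM in the labelled deficient group and 2.68 ± 0.951 CPM in the control group (1.81 ± 0.31, edgeR adjusted p = 0.0906). The groups of both were separate in all 4 libraries, libraries 1 and 4 included. Of the 13 tested genes 4 were separate, against 16.3% of all genes. Lif and Wnt5a, also among the 4 with the smallest p, were higher in the labelled deficient group. Their DESeq2 log2 differences were 2.89 and 0.85. Without labelled deficient libraries 2 and 3 their edgeR differences were 2.11 and 0.76. Emx2, which HOXA10 represses in human endometrial cells, had a log2 difference of -0.13 ± 0.11 (SE), and Itgb3, an integrin gene that it activates there, one of 0.54 ± 0.23.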

How the data were processed

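The authors deposited whole-number counts per gene symbol for 8 uterine libraries, 4 per group; per the submitters' processing notes HISAT2 2.2.1, HTSeq 0.10.0 and the mm10 build were used, with roles, settings and strand not given in the sources used here. From these counts edgeR 4.0.16 (R 4.3.3; filterByExpr with a minimum count of 10, TMM scaling, quasi-likelihood test, Benjamini-Hochberg threshold 0.05) tested 17629 genes over both groups, and all adjusted p-values are over that set. DESeq2 1.42.0 and limma-voom (limma 3.58.1) were alternatives, with other filters, the deposited totals as scaling, a replicate block, each library left out and labelled deficient libraries 2 and 3 left out together. Cluster and paralog sums were compared with two-sided exact permutation tests. Hox genes averaging 1 CPM or more were described by library; of each list the 4 with the smallest p could be named. The members, lists and the libraries left out were chosen with earlier results of these data known. RefSeq (GRCm38.p6) held 22356 of the 31269 symbols and all 39 Hox genes, by gene span only, so span replaced exon length and no transcript length was tried. Hotair, Hoxa11os, Cyp26a1, Emx2 and Itgb3 were named after their values were seen. Older symbols were matched for Adgre1, Hoxaas3 and Haglr. Chi-square between any pair of libraries was at least 48.6 times its degrees of freedom, so none was counted as a repeat. The 3-count limits cover counting error only. Some genes and sums are not reported here. The code was tested on simulated data.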

Additional observations from a re-analysis of the deposited data

Results flagged for a closer look

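In 4 of 88 groups of 4 libraries checked, 1 library lay far from the other 3, where chance gives about 1 in 20, or 4.4. Control library 1 was high for Hoxa9, with 229 CPM against 189.0 to 191 CPM in the other controls. It was low for Hoxb4, with 34.6 CPM against 39.4 to 39.9 CPM. Labelled deficient library 1 had 1.80 CPM of Hoxc5, against 1.37 to 1.42 CPM in the other 3. Control library 4 had 1.99 CPM of Hoxc11, against 0.193 to 0.409 CPM in the other controls.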

How the results depend on the processing

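Of 1338 alternative values, 1279 were taken as unchanged. For differences this meant the same direction and the same side of the threshold, whatever the change in size. Hoxa10, for example, counted as unchanged at -0.043 without labelled deficient libraries 2 and 3, against -0.34. Cluster and paralog sums could not pass the threshold there (smallest exact permutation p 0.0667) or with the replicate block (0.125). Their side of it was thus fixed in advance at these settings. For counts of genes it also allowed small moves, such as 6 Hox genes lower without labelled deficient libraries 2 and 3, against 5. edgeR called 0 Hox genes at every setting. DESeq2 called 2, with 1 of the cofactors, 4 of Polycomb and trithorax, 4 of Cdx and retinoid genes and 5 of tract genes. Of all genes DESeq2 called 14.2%. Hox genes lower at an unadjusted p under 0.05 numbered 5 in edgeR and 8 with limma-voom. With 1 library left out they ran from 2 (without control library 1) to 9 (without labelled deficient library 4), with 8 without labelled deficient library 1. Over all genes, in either direction, the counts moved too: 4372 of 17629 in edgeR, 4185 of 17629 with limma-voom and 3235 of 17806 without control library 1. They were 5471 of 17829 without labelled deficient library 4 and 4379 of 17812 without labelled deficient library 1. Counts of list genes at that limit, in either direction, were 2 cofactors with the deposited totals and 2 noncoding with limma-voom. They were 1 to 2 cofactors, 0 to 2 noncoding and 4 to 11 Polycomb and trithorax genes when 1 library was left out. At the same unadjusted limit the replicate block gave 10 Hox genes lower, 2 cofactors and 3 noncoding, against 4338 of 17629 genes in either direction. At the adjusted threshold it called 0 Hox genes and 23 of all genes. Same-numbered libraries correlated at 0.20, 0.24, -0.01 and -0.08, so the numbers were not taken to pair them. Hoxc5 became 0.023 with limma-voom and 0.016 with the block. Per kb of span the Hox C sum became 0.026. Without labelled deficient libraries 2 and 3, differences turned to 0.085 (Hoxa5), 0.0065 (Hoxa11), -0.019 (Hoxb7), 0.11 (Hoxc4), 0.069 (Hoxc5), -1.30 (Hoxc11), 0.10 (Hoxd8), 0.12 (Hoxd9) and -0.030 (group 7). At an unadjusted p under 0.05 there were then 2 cofactors, 4 tract and 0 noncoding genes, against 3325 of 18022 genes in all. Leaving out 1 library gave -0.17 to 0.12 for Hoxc5, -0.18 to 0.020 for Hoxb9 and -0.030 to 0.36 for Hoxc10. The cause was not tested. Depth limits Hoxa13, Hoxb1, Hoxb13, Hoxc12, Hoxc13, Hoxd1 and Hoxd13, at a few counts per library.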
